A study of Mus musculus with 6 samples.

Results

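The 57 genes described here are the collagen chains and the enzymes and helper proteins that act on them. They were the 44 genes of the table whose symbols have the form of a collagen chain (Col, a type number, a, a chain number) together with 13 named genes: the lysyl oxidases Lox and Loxl1 to Loxl4, the prolyl 4-hydroxylase subunits P4ha1 to P4ha3, the lysyl hydroxylases Plod1 to Plod3, the chaperone Serpinh1 and the proteinase enhancer Pcolce. The table held 24129 genes in all. RNA sequencing was done on T1 cells (labelled 4T1A) and T2 cells (labelled 4T1NA), with 3 replicates of each, which the design text calls independent. Both populations were recovered from a mammary tumor that GFP-tagged 4T1 mouse mammary carcinoma cells (4T1GFP) had formed in BALB/c mice, a model of triple-negative breast cancer. T1 cells had low GFP, adhered with an epithelial morphology and proliferated fast. T2 cells had high GFP, were round and only loosely adherent, proliferated more slowly and were the less aggressive population. Both had been sorted on GFP out of a culture of tumor fibroblasts that tumor cells had outgrown, and both were then kept in DMEM/F-12 medium with serum. T2 cells were subcultured without trypsin, as a suspension, so that adhesion and handling cannot be told apart from the population. The RNA thus came from cultured cells and not from tumor tissue with its stroma, and the parental 4T1GFP cells were not analysed here.

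Collagens are built from 3 α chains wound around each other, and each type needs particular chains. Inside the endoplasmic reticulum prolyl 4-hydroxylases stabilise the helix, lysyl hydroxylases prepare the sites of cross-links and Serpinh1 (HSP47) binds the folded helix until it leaves. Outside the cell, proteinases trim the ends of the fibril-forming types and lysyl oxidases start the cross-linking of the finished polymer. Types IV and XVIII lie in basement membranes, the sheet on which epithelial cells rest, type VII anchors that sheet to the stroma beneath, and type XVII is a transmembrane chain of the hemidesmosome. Types I, III and V form the fibrils of the stroma and are chiefly made by fibroblasts.

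The 6 libraries held 18133227 to 20839686 reads on genes. Values are normalized counts, in which 1 read was worth 0.928 to 1.06. Keratins were abundant in both populations, with Krt8 at 21191 to 23297 normalized counts in T1 and 17357 to 20326 in T2 cells. The epithelial surface gene Epcam lay at 2931 to 3502 in T1 and at 30.7 to 37.2 in T2 cells, so that this marker was low in the T2 libraries. Markers of other cell types were low. Of 12 fibroblast markers outside the collagens, 6 had no read in any library (among them Lum, Pdgfrb and Thy1), and their summed level was 37.0 to 45.9 normalized counts in T1 and 18.6 to 19.5 in T2 cells, mostly from Tagln. The 6 pericyte markers summed to 747 to 1419 in T1 and 236 to 317 in T2 cells, nearly all of it from Mcam, and to 6.35 to 13.9 and 12.3 to 26.9 without it. The 7 endothelial markers summed to 1.95 to 16.9 and 0 to 6.495, and the 7 leukocyte markers to 3.17 to 15.8 and 9.21 to 14.9. In these bulk libraries, a smaller share of cells that use a gene and less of its RNA in each cell cannot be told apart.

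Of the 57 genes, 25 had a mean of at least 10 normalized counts and were tested, 14 of the 44 chains and 11 of the 13 enzymes and helpers. A gene was called different at an adjusted p-value under 0.01 in limma. By this rule 22 of the 25 tested genes (88%) differed between T1 and T2 cells, 8 higher in T1 and 14 lower in T1, where 49.5% of the 11514 genes tested in the whole table differed (25.1% higher and 24.4% lower in T1). The study asked in addition for a log2 fold change above 2, a filter applied here in both directions. With both filters, 9 genes remained, 5 higher in T1 (Col1a1, Col7a1, Col12a1, Loxl1 and P4ha2) and 4 lower in T1 (Col4a6, Col17a1, Col18a1 and Loxl3), or 36% beside 8.37% of all genes tested (4.17% and 4.2% by direction). The values of the 3 T1 and the 3 T2 replicates did not overlap in 23 of the 25 genes, against 68.1% of all genes. The median log2 difference was -0.51 over the 25 genes and -0.0055 over all genes, and the median absolute difference was 1.51 and 0.453. Among the 25, 6 genes had a mean under 10 in either population (Col1a1, Col4a6, Col17a1, Col27a1, Loxl1 and P4ha2) and were tested because of their level in the other. Of the 19 with a mean of at least 10 in both, 16 differed, against 48.0% of the 10917 such genes of the table. Past both filters were 4 of these 19, 2 higher in T1 (Col7a1 and Col12a1) and 2 lower in T1 (Col18a1 and Loxl3), against 4.93% of such genes (2.26% higher and 2.67% lower).

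**Figure D1:**
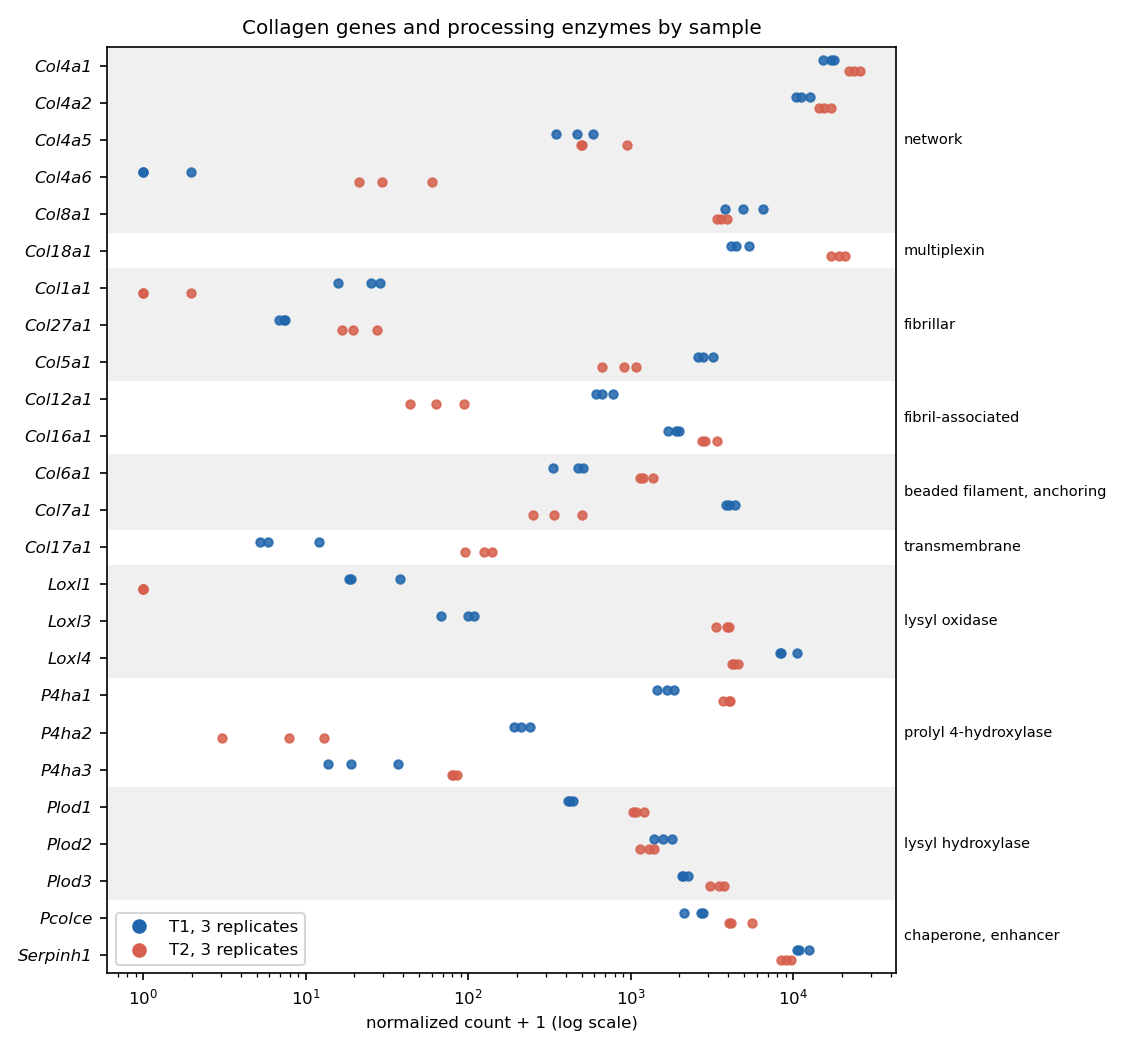
Normalized counts (plus 1, log axis) of the 25 tested collagen and collagen processing genes, grouped by role, with 1 point per replicate, T1 cells in blue and T2 cells in red. Col4a1 and Col4a2 lay near the top in both populations, while Col7a1, Col12a1, Col17a1, Loxl3 and P4ha2 had T1 and T2 points that stood well apart.

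The other 32 genes were near or at the limit of detection. No read fell on 12 chains in any library: Col3a1, Col5a2, Col6a4, Col6a6, Col9a1, Col9a2, Col11a1, Col13a1, Col19a1, Col25a1, Col26a1 and Col28a1. A count of 0 allows up to 3 reads in a library of this depth. In 16 of the 32, the 12 included, no library had more than 3 reads, and the highest count among them all was 18 reads, for Loxl2 in a T1 library. The chain of type III collagen and those of types IX, XI and XIV that accompany or form stromal and cartilage fibrils thus held at most 14 reads in a library.

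The basement membrane network was the most abundant collagen in both populations and was higher in T2 cells. The α1 chain Col4a1 (chr8:11198423-11312826, minus strand) had 15397, 17052 and 17772 normalized counts in T1 cells and 23654, 25808 and 22080 in T2 cells. Its partner chain Col4a2 (chr8:11312805-11449287, plus strand) had 10397, 11191 and 12642 in T1 and 15423, 17090 and 14450 in T2 cells. All T2 replicates lay above all T1 replicates for both chains. The difference was 1.42-fold for Col4a1 (log2 -0.51 ± 0.09, T1 minus T2, SE, adjusted p = 0.000454) and 1.37-fold for Col4a2 (log2 -0.46 ± 0.09, adjusted p = 0.00158). Col4a1 and Col4a2 form 1 heterotrimer, and their genes lie head to head with annotated starts that overlap. Per kilobase of exon, the ratio of Col4a1 to Col4a2 was 1.31, 1.35 and 1.25 in T1 and 1.36, 1.34 and 1.36 in T2 cells. The groups overlapped (1.30 ± 0.0530 and 1.35 ± 0.0109, SD, n = 3, two-sided exact permutation p = 0.2, the smallest that 3 against 3 allows being 0.1).

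The second head-to-head pair of type IV chains lies on chromosome X. Col4a5 (chrX:141475385-141689234, plus strand) had 346, 465 and 590 normalized counts in T1 and 492, 500 and 951 in T2 cells. The groups overlapped and the test was not passed (log2 -0.43 ± 0.26, adjusted p = 0.17). Without T2 replicate 3, which was the highest, the difference was -0.12. Col4a6 (chrX:141165403-141474076, minus strand), which joins Col4a5 in the basement membranes of some epithelia, had 0, 0 and 1 read in T1 cells and 29, 20 and 64 reads in T2 cells. It was therefore higher in T2 cells, with a T2 mean 12.2-fold above a floor of 3 reads per library (adjusted p = 2.76e-05). The α3 and α4 chains of this collagen, Col4a3 and Col4a4, had at most 4 reads in any library. The starts of Col4a5 and Col4a6 are 1309 bases apart, and the sequences just upstream of each are printed because the genes share this interval and only Col4a6 passed the test, the difference between their changes not having been tested. They are the parts of the 250 bases before each start that hold no annotated exon (RefSeq, GRCm38.p6), read 5′ to 3′ on the strand of the gene. Col4a5 is at chrX:141475169-141475384 on the plus strand and Col4a6 at chrX:141474077-141474326 on the minus strand. Lower case throughout means that none of the 3 motifs searched below matched.
Col4a5: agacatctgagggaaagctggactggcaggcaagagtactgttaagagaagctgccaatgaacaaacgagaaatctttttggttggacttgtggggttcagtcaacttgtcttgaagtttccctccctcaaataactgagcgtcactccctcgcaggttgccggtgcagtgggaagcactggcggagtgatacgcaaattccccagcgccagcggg
Col4a6: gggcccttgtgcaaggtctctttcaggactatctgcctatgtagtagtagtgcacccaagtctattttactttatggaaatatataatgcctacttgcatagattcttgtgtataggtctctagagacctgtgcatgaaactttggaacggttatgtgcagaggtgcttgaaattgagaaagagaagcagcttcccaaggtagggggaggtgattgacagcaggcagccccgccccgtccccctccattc

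Col8a1, a short chain network collagen of vessels and other matrices, had 3836, 4916 and 6504 normalized counts in T1 and 3417, 3907 and 3606 in T2 cells. The lowest T1 value lay among the T2 values, and the test was not passed (1.4-fold higher in T1, log2 0.45 ± 0.16, adjusted p = 0.0284). DESeq2 gave an adjusted p of 0.00276, and limma gave 0.00189 without T1 replicate 1. Its partner Col8a2 had at most 9 reads in a library. Of the 9 network collagens, 5 were tested and 3 (60%) differed, all lower in T1 cells (Col4a1, Col4a2 and Col4a6). Of all genes tested, 49.5% differed and 24.4% were lower in T1.

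Col18a1, the basement membrane proteoglycan whose C-terminal fragment is endostatin, was the second collagen chain in level per kilobase in T2 cells. Col18a1 (chr10:77052178-77166548) had 4430, 4169 and 5353 normalized counts in T1 and 20871, 19149 and 17232 in T2 cells. Every T2 value was more than 3 times every T1 value. The means, 4651 ± 622 and 19084 ± 1820 (SD, n = 3), differed 4.1-fold (log2 -2.04 ± 0.11, adjusted p = 1.23e-07). The log2 difference was just past the fold filter and stood at -1.97 when either T1 replicate 2 or T2 replicate 1 was left out. The gene overlaps Slc19a1 on the other strand, and the library kit does not mark strand. Slc19a1 moved the other way, from 509 to 692 in T2 to 1478 to 1948 in T1 cells (log2 1.58, adjusted p = 4.57e-06). The related Col15a1 had at most 3 reads in a library.

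The fibrillar collagens were represented chiefly by Col5a1. The α1 chain of type V collagen, which seeds fibrils, had 2590, 2791 and 3204 normalized counts in T1 and 662, 1074 and 905 in T2 cells. It was 3.25-fold higher in T1 cells with no overlap (log2 1.72 ± 0.16, adjusted p = 6.7e-06). The chains it commonly pairs with were near 0, since Col5a2 had no read in any library and Col5a3 had 2, 7 and 7 reads in T1 and 0, 2 and 3 in T2 cells. The α1 chain of type I collagen, Col1a1, had 14, 30 and 25 reads in T1 and 1, 0 and 0 in T2 cells. It was higher in T1 cells, with a T1 mean 7.63-fold above the floor of 3 reads per library (adjusted p = 4.94e-05). This level was far below that of Col5a1. Its partner Col1a2 had 4, 7 and 12 reads in T1 and none in T2 cells. Col1a2 was too low to be tested, and its T1 mean stood 2.55-fold above the floor. Col27a1, a fibrillar chain of cartilage and other tissues, had 6.35, 6.51 and 5.86 normalized counts in T1 and 18.6, 26.6 and 15.8 in T2 cells. The 3.26-fold difference passed the test (log2 -1.53 ± 0.35, adjusted p = 0.00336), but not with DESeq2 (adjusted p = 0.0148), nor with limma without T2 replicate 1 (0.0137) or T2 replicate 2 (0.0164). Of the 11 fibrillar chains 3 were tested, 2 of them higher in T1 cells, where 25.1% of all genes tested were. The summed level of the fibroblast markers, mostly from Tagln (mean 33.3 in T1 and 15.9 in T2), was also higher in T1 cells. Its part in the difference of Col1a1 was not tested.

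Both tested fibril-associated chains differed, in opposite directions, where 49.5% of all genes tested differed. Col12a1 (chr9:79598991-79718831), which sits on the surface of fibrils, had 666, 611 and 781 normalized counts in T1 and 62.7, 93.2 and 42.7 in T2 cells. It was 10.4-fold higher in T1 cells (log2 3.42 ± 0.25, adjusted p = 1.24e-06). Col16a1, which is associated with both fibrils and basement membrane zones, had 1700, 1902 and 1996 in T1 and 2735, 3388 and 2862 in T2 cells. It was 1.6-fold higher in T2 cells without overlap (log2 -0.68 ± 0.10, adjusted p = 0.000186). The remaining 7 fibril-associated chains had at most 9 reads in a library.

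The collagens that tie epithelium to matrix differed in opposite directions. Col7a1 (chr9:108953586-108984875), the chain of the anchoring fibril, had 4008, 3848 and 4423 normalized counts in T1 and 249, 502 and 339 in T2 cells. It was 11.3-fold higher in T1 cells (4093 ± 297 against 363 ± 128, log2 3.55 ± 0.20, adjusted p = 2.43e-07). Col17a1 (chr19:47646344-47692094), the transmembrane chain of the hemidesmosome, was higher in T2 cells. It had 4.23, 11.2 and 4.88 in T1 and 139, 95.2 and 124 in T2 cells, a 17.7-fold difference (log2 -4.05 ± 0.35, adjusted p = 4.77e-06). The differences of these chains of the same attachment zone thus ran in opposite directions. Per kilobase, the mean of Col7a1 lay above that of Col17a1 in T1 (398 and 1.12) and in T2 cells (35.3 and 19.9). Neither gene had overlapping groups, as was so for 68.1% of all genes tested. Col6a1, a chain of the beaded filaments, had 511, 334 and 471 in T1 and 1196, 1138 and 1371 in T2 cells (2.81-fold higher in T2, log2 -1.51 ± 0.15, adjusted p = 1.49e-05). The chains with which it forms the type VI heterotrimer were nearly absent, with Col6a2 at 4, 3 and 3 reads in T1 and 1, 3 and 6 in T2 cells, and Col6a3 at 0, 1 and 0 in T1 and 7, 2 and 4 in T2 cells.

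**Figure D2:**
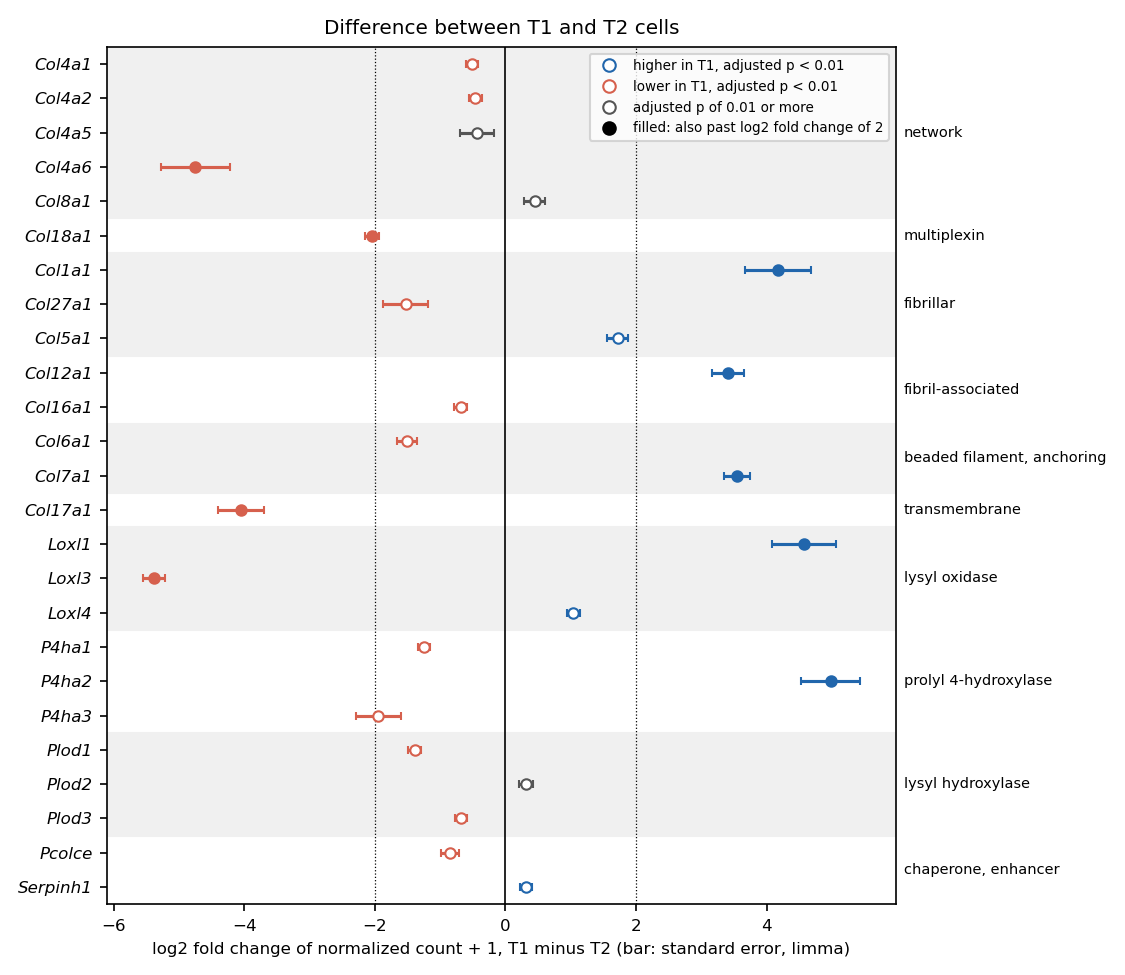
Log2 difference (T1 minus T2, limma on log2 of normalized count plus 1) of the 25 tested genes with its standard error as a bar, grouped by role. Blue and red points had an adjusted p under 0.01 (higher and lower in T1), grey ones did not, and filled points also passed the fold filter. Loxl3 (-5.38) and P4ha2 (4.98) are the extremes of this fit, and the dotted lines at -2 and 2 mark that filter.

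The lysyl oxidases, copper enzymes that start cross-linking, had a different makeup in each population. Loxl3 (chr6:83034173-83052562) had 98.4, 67.0 and 108 normalized counts in T1 and 4028, 3372 and 3919 in T2 cells. At 41.4-fold (3773 ± 352 against 91.2 ± 21.6, log2 -5.38 ± 0.17, adjusted p = 4e-09) this was the largest fold among the 19 tested genes with a mean of at least 10 in both populations. Loxl4 (chr19:42593982-42612813) had 8255, 10584 and 8374 in T1 and 4194, 4608 and 4343.5 in T2 cells and was 2.07-fold higher in T1 cells (log2 1.04 ± 0.10, adjusted p = 9.17e-06). Loxl1, which is best known for cross-linking elastin, had 17, 40 and 18 reads in T1 and none in T2 cells. It was higher in T1 cells, with a T1 mean 8.27-fold above the floor of 3 reads per library (adjusted p = 2.2e-05). Loxl2 was too low to be tested, with 18, 9 and 9 reads in T1 and none in T2 cells. Its T1 mean was 4.12-fold above the floor. Lox itself had 1 read, in a T1 library. Of the family's summed level per kilobase of exon, Loxl4 held 98.6% ± 0.257 in T1 and 56.0% ± 3.50 in T2 (SD, 3 replicates). Loxl3 held 1.07%, 0.573% and 1.17% in T1 and 46.8%, 40.1% and 45.2% in T2 cells (two-sided exact permutation p = 0.1 for each share). The share of all reads on the family, 0.0477% and 0.0428%, overlapped between the populations (exact permutation p = 0.2).

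Loxl3 overlaps Htra2 on the other strand and starts 702 bases from Dok1, which runs away from it. Htra2 had 1005 to 1211 normalized counts in T1 and 1119 to 1241 in T2 cells and did not pass the test (log2 -0.13, adjusted p = 0.259). Dok1, an adaptor protein of receptor tyrosine kinases, had 531, 446 and 533 in T1 and 2821, 1877 and 2494 in T2 cells. Like Loxl3 it was higher in T2 cells (log2 -2.23 ± 0.14, adjusted p = 5.75e-07). Of the 25 tested genes, 5 others also had a neighbour of the table that starts within 2000 bases and runs the other way. These were Col4a1 and Col4a2, which moved together, Col4a5 and Col4a6, of which only the latter passed the test, and Plod3 beside Znhit1 (log2 -0.22, adjusted p = 0.14).

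The α subunits of prolyl 4-hydroxylase, which carry the catalytic site and determine the form of the enzyme, also divided between the populations. P4ha1 (chr10:59323296-59373304), the main form in most cells, had 1455, 1862 and 1678 normalized counts in T1 and 4038, 4076 and 3695 in T2 cells. It was 2.36-fold higher in T2 cells (log2 -1.25 ± 0.10, adjusted p = 2.24e-06). P4ha2 (chr11:54100095-54131665) had 181, 259 and 216 reads in T1 and 7, 2 and 13 in T2 cells. It was 30.7-fold higher in T1 cells (214 ± 24.9 against 6.99 ± 5.01 normalized counts, log2 4.98 ± 0.45, adjusted p = 5.96e-06). P4ha3 had 18.0, 36.3 and 12.7 in T1 and 78.3, 84.98 and 79.8 in T2 cells, 3.63-fold higher in T2 (log2 -1.94 ± 0.34, adjusted p = 0.00063). None of these genes overlapped between the populations, as was so for 68.1% of all genes tested. Per kilobase, P4ha1 remained the main form, with 90.7% ± 0.748 of the summed level in T1 and 97.3% ± 0.191 in T2 cells, while P4ha2 held 7.71% ± 0.146 and 0.117% ± 0.0886 (exact permutation p = 0.1).

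The upstream sequences of P4ha1 and P4ha2 are printed because these subunits differed in opposite directions and both windows hold ACGTG. This is a form of the core of the hypoxia response element, and no other form was searched. Each is 250 bases long and ends at the base before the start site (RefSeq, GRCm38.p6), P4ha1 at chr10:59323046-59323295 and P4ha2 at chr11:54100674-54100923, both on the plus strand. The P4ha2 start in RefSeq lies inside the GENCODE span of the gene, and no annotated exon falls in the window. Capitals mark ACGTG, or CACGT where the match is on the other strand.
P4ha1: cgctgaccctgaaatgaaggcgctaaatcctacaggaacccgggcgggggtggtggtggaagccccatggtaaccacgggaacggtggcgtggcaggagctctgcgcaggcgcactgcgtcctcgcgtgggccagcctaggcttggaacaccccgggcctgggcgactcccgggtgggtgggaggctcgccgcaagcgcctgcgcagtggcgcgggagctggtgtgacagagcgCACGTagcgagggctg
P4ha2: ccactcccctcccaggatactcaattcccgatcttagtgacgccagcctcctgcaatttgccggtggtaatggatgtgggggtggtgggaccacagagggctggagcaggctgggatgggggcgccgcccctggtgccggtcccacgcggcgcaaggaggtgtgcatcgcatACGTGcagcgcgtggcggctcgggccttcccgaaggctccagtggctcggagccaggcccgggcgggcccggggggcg

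Promoter sequence was at hand for 20 of the 25 tested genes, with 21 windows since Col18a1 has a pair of starts. None was at hand for Plod2, nor for Col1a1, Col12a1, Loxl1 and Loxl3, which had passed both filters. ACGTG, searched on both strands, was in 5 of the 21 windows (23.8%), those of Col5a1, P4ha1, P4ha2, Plod3 and Serpinh1, against 16.6% of 32851 windows of the same length. Of these 5 genes, Col5a1, P4ha2 and Serpinh1 were higher in T1 and P4ha1 and Plod3 lower in T1 cells. TGANTCA, the AP-1 motif, was in 1 window (4.76% against 6.75%), that of Col6a1. CAGGTG, the E-box bound by Snail and Zeb factors, was in 3 (14.3% against 17.2%), those of Col8a1, Col16a1 and Pcolce. The motifs do not overlap in these windows. A match is a run of letters and not a measured binding site.

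Of the lysyl hydroxylases, Plod1 and Plod3 were higher in T2 cells. Plod1 had 408, 421 and 439 normalized counts in T1 and 1205, 1041 and 1085 in T2 cells (2.63-fold, log2 -1.39 ± 0.10, adjusted p = 1.1e-06). Plod3, which also adds sugars to hydroxylysine, had 2108, 2272 and 2076 in T1 and 3515, 3748 and 3086 in T2 cells (1.6-fold, log2 -0.68 ± 0.09, adjusted p = 8.08e-05). Plod2, the form that acts on the ends of fibrillar chains, did not pass the test. It had 1401, 1800 and 1588 in T1 and 1141, 1301 and 1387 in T2 cells, values that did not overlap (log2 0.32 ± 0.11, adjusted p = 0.0289). Plod2 made up 35.4% ± 2.12 of the family's level per kilobase in T1 and 20.4% ± 2.70 in T2 cells (exact permutation p = 0.1).

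The helper proteins were abundant in both. Serpinh1 had 10542, 10927 and 12485 normalized counts in T1 and 9057, 9737 and 8394 in T2 cells. The 1.25-fold difference was just past the threshold (log2 0.32 ± 0.09, adjusted p = 0.00898), and it was not past it with edgeR (0.0105), nor in 5 of the 6 fits that left out a library (0.0108 to 0.0399). Pcolce, which speeds the removal of the C-terminal propeptide of fibrillar collagens, had 2715, 2118 and 2804 in T1 and 4126, 4057 and 5581 in T2 cells (1.8-fold higher in T2, log2 -0.84 ± 0.14, adjusted p = 0.000414). Of the 11 tested enzymes and helpers, 10 differed (90.9%), 4 higher and 6 lower in T1 cells. Of all genes tested, 49.5% differed (25.1% higher and 24.4% lower in T1).

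Levels can be compared between genes only per kilobase of exon, here the merged length of all annotated exons of a gene. On that scale Serpinh1 was the highest of the 25 in both populations (4633 normalized counts per kilobase in T1 and 3710 in T2), followed by Col4a1 (2243 ± 163 and 3195 ± 251). Loxl4 was the third in T1 cells (2153) and the sixth in T2 cells (1040). Col18a1 was the sixth in T1 cells (662 ± 88.6) and the third in T2 cells (2718 ± 259). Loxl3 lay at 19.8 in T1 and at 820 in T2 cells. Collagen chains took 0.229%, 0.244% and 0.279% of all reads in T1 and 0.360%, 0.380% and 0.340% in T2 cells. The share was thus higher in every T2 library, and the enzymes and helpers took 0.151% ± 0.00802 and 0.166% ± 0.00214 (exact permutation p = 0.1 for both).

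The makeup of the collagen level per kilobase also differed. Col4a1 and Col4a2 together held 61.0% ± 1.59 in T1 and 57.0% ± 1.34 in T2 cells. Col18a1 held 10.2% ± 0.743 in T1 and 27.9% ± 2.12 in T2 cells. Col7a1 held 6.13% ± 0.395 and 0.360% ± 0.113, Col5a1 5.17% ± 0.0320 and 1.06% ± 0.234, and Col8a1 9.86% ± 1.59 and 4.78% ± 0.304. For these shares the replicates of the populations did not overlap (exact permutation p = 0.1 each). Col16a1 held 4.25% and 4.55% (p = 0.3 by the same exact test).

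**Figure D3:**
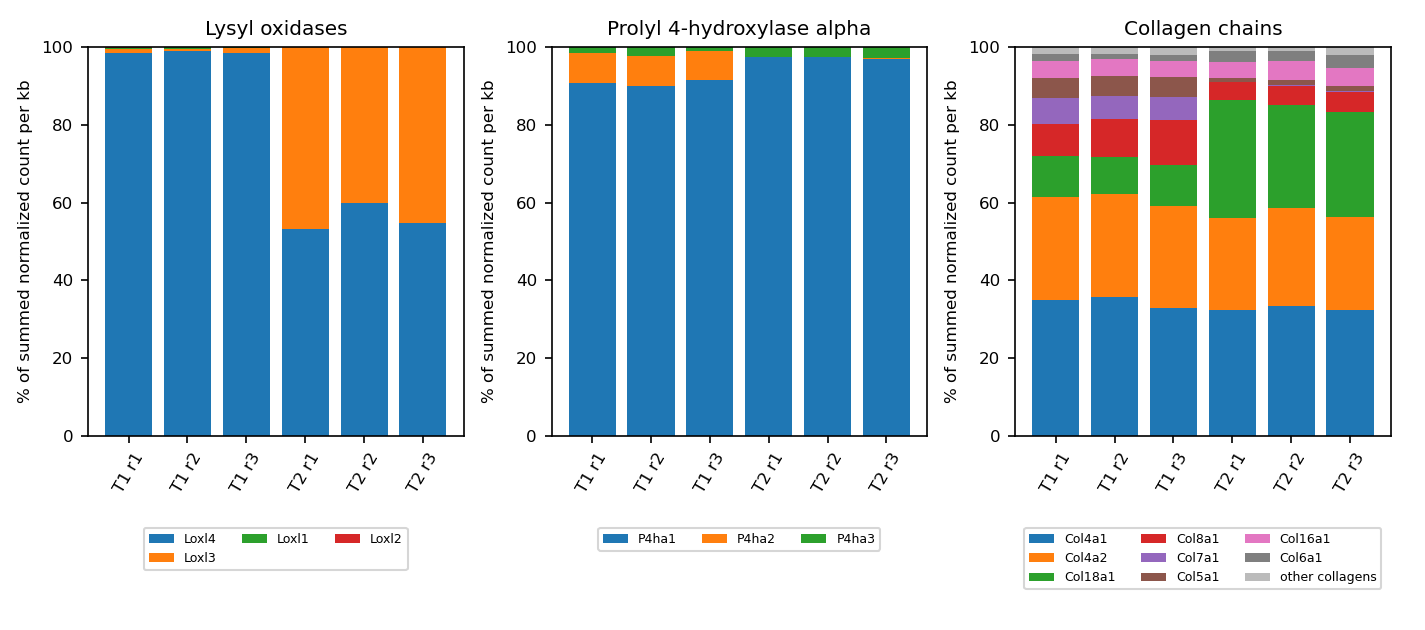
Share of each gene in the summed level per kilobase of exon (percent, bars from 0) for the lysyl oxidases, the prolyl 4-hydroxylase α subunits and the collagen chains, with 1 bar per library (r1 to r3 are replicates). The lysyl oxidase level was nearly all Loxl4 in T1 and a mixture of Loxl4 and Loxl3 in T2, and Col18a1 took a larger part of the collagen level in T2.

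The wider pathway was read from 47 further genes in 5 lists, of which 29 were tested and 19 differed (65.5%), 6 higher and 13 lower in T1 cells, beside 49.5% of all genes tested (25.1% higher and 24.4% lower). P3h4 and Mrc2 had a mean under 10 in 1 population and were tested because of their level in the other. Among the partners that modify or fold chains in the endoplasmic reticulum, 14 of 17 were tested and 12 differed (85.7%, beside the same 49.5%), 5 higher and 7 lower in T1 cells (median log2 difference -0.24, beside -0.0055 over all genes). P3h4, a scaffold protein of lysyl hydroxylation and prolyl 3-hydroxylation, had 47.6, 38.1 and 56.6 normalized counts in T1 and no read in T2 cells. Its T1 mean was 16.2-fold above the floor of 3 reads per library (adjusted p = 1.38e-06). P3h3, a prolyl 3-hydroxylase family member that acts with P3h4, had 123, 106 and 132 in T1 and 546, 484 and 432 in T2 cells (4.06-fold higher in T2, log2 -2.01, adjusted p = 1.35e-06). The log2 difference of P3h3 was just past the fold filter and ranged from -2.09 to -1.92 over the fits. P3h4 and P3h3 thus differed in opposite directions. Fkbp14, a prolyl isomerase of the endoplasmic reticulum, had 12.7 to 23.3 in T1 and 99.3 to 103 in T2 cells (5.87-fold, log2 -2.53, adjusted p = 1.56e-05). P4hb, the common β subunit of the prolyl 4-hydroxylases, was lower in T1 cells by little (log2 -0.35, adjusted p = 0.00168).

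The receptors that bind collagen and the one that takes it up included 3 genes far higher in T2 cells. Of 8 genes 7 were tested and 4 differed, 1 higher and 3 lower in T1 cells, a share (57.1%) near the 49.5% of all genes tested (median log2 difference -0.23). Mrc2 (Endo180), which takes up cleaved collagen, had 9.52, 3.72 and 3.90 normalized counts in T1 and 155, 128 and 210 in T2 cells (28.7-fold, log2 -4.69, adjusted p = 1.82e-06). Itga1, the α1 integrin subunit that binds type IV collagen, had 23.3 to 28.3 in T1 and 303 to 579 in T2 cells (16.0-fold, log2 -3.89, adjusted p = 6.2e-07). Itga10, another collagen-binding α subunit, had 7.81 to 14.9 in T1 and 117 to 152 in T2 cells (10.4-fold, log2 -3.31, adjusted p = 4.68e-06). Their common β subunit Itgb1 was higher in T1 cells (log2 0.77). Itga2 and the discoidin domain receptors Ddr1 and Ddr2 did not pass the test, with log2 differences of -0.01, -0.23 and 0.33.

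Of the 7 procollagen proteinases and their enhancers 3 were tested and 2 were lower in T1 cells, where 24.4% of all genes tested were (median log2 difference -0.57). Bmp1, the C-proteinase, had 6838 ± 281 normalized counts in T1 and 10146 ± 875 in T2 cells (log2 -0.57). The N-proteinase Adamts14 also was lower in T1 cells (log2 -1.57), while Adamts2, Adamts3, Tll1 and Tll2 had no read. Of the 9 small leucine-rich proteoglycans, which coat fibrils, none was tested. Of the 6 basement membrane partners 5 were tested and 1, the laminin chain Lamc1, was lower in T1 cells (log2 -0.45), with Hspg2, Nid1, Pxdn and Sparc not past the test (median log2 difference -0.20).

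**Figure D4:**
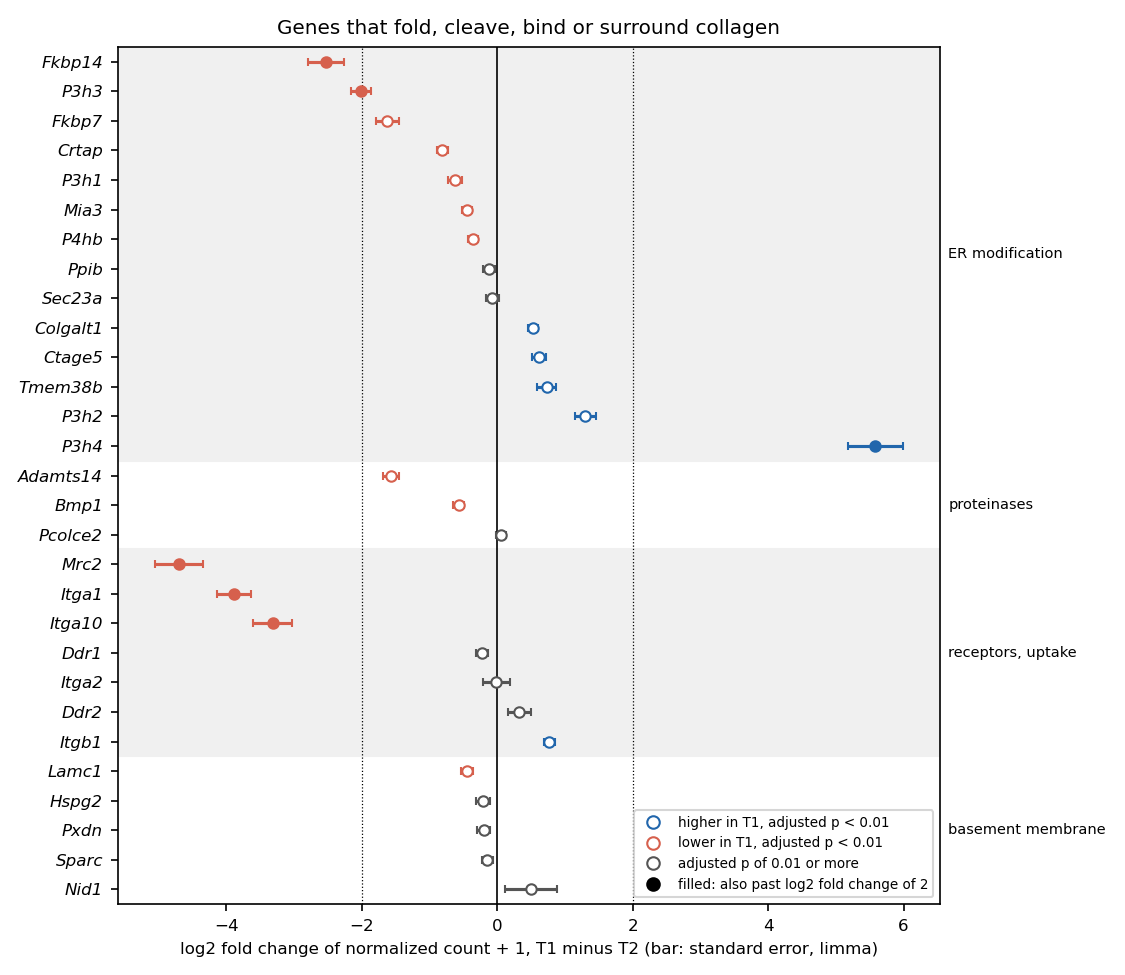
Log2 difference (T1 minus T2) with its standard error for the 29 tested genes of the related lists, grouped by list, with colours for direction, open points for genes not past the fold filter and dotted lines at -2 and 2. The points furthest below 0 are Mrc2 (-4.69) and Itga1 (-3.89), and the point furthest above 0 is P3h4, which had no read in T2 cells.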

How the data were processed

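Poly(A) RNA libraries (Illumina TruSeq RNA V2) of 3 T1 and 3 T2 cultures were sequenced as paired ends. The authors trimmed reads with Trimmomatic, used TopHat2 (mm10) and HTSeq for alignment and counting, and deposited a signal in which the count of each gene is divided by the DESeq2 size factor of its sample. Annotation, strand setting and versions are not given in the sources used here. Whole reads were recovered from 100% of the deposited values, and 0 columns of values were left unused. The tolerance was 0.01 read up to 100 reads and grew in proportion to the count above that, so the check says little for high counts. Depth was 18133227 to 20839686 reads per library.

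T1 was compared with T2 by limma 3.58.1 (run in R 4.3.3, variance trend on), after a log2 transform with a pseudocount of 1, over 11514 genes whose mean normalized count reached 10, with Benjamini-Hochberg adjustment. Fold changes of low genes are understated on this scale. Where no library of a population exceeded 3 reads, the mean of the other population was divided by a floor of 3 reads per library. Such a fold does not cover the spread or the counting error of the higher population. Whole reads were also tested with edgeR 4.0.16 and DESeq2 1.42.0. Limma called 5701 genes at an adjusted p under 0.01 and 964 past both filters, edgeR 5716 and 974, and DESeq2 6067 and 974. Shares and ratios were compared by exact permutation tests. Exon lengths and coordinates came from GENCODE M21 (mm10). The length of a gene was that of all its annotated exons merged, so levels per kilobase are understated where cells do not use some of them. Scripts were tested on simulated data.

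The genes, lists and tests were chosen with earlier results of these data known. Every tested gene of the set is named with values, the others by reads or counts, and of each related list up to 3 genes past both filters with the largest differences. Related genes named beyond these were chosen after their values were seen. Alternatives covered the pseudocount, filters on low counts, scaling, the test, the replicate block and leaving out each library. The design text calls the replicates independent. If they were cultures of 1 sorted population, p-values measure the spread between cultures.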

Additional observations from a re-analysis of the deposited data

How the results depend on the processing

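Of 491 values for 31 genes under 16 alternatives, 474 kept the direction and the side of the threshold, 14 lost the call, 3 gained it and 0 changed direction. The calls lost were those of Serpinh1 (10 alternatives), Col27a1 (3) and Col4a2 (1, without the variance trend, adjusted p = 0.0118 in limma), and the call gained was that of Col8a1 (3). With the filter raised to a mean of 50, 3 collagen and processing genes were higher in T1 past both filters instead of 5. Those lower in T1 past both filters were 3 instead of 4. Of the related lists, 0 genes were higher in T1 past both filters instead of 1. The genes Col1a1, Loxl1, Col4a6, Col27a1 and P3h4 were no longer tested. When each library was left out in turn, 7 to 8 collagen and processing genes were higher in T1 and 13 to 14 were lower, and 3 to 4 were lower past both filters. The difference in the share of reads on collagen chains ranged from -0.123 to -0.0981 percentage points. Replicate numbers are shared by the groups, but the deviations of same-numbered samples from their group means correlated only weakly (r = 0.0575, 0.172 and 0.104), and not every r was over 0.1, the limit set for pairing. T2 replicate 1 correlated better with T1 replicate 3 than with its own number. The replicate block gave 8 higher and 14 lower, with 5 and 4 past both filters, lost Serpinh1 (adjusted p = 0.0142) and gained Col8a1 (0.0081). Values of genes with hardly a read in 1 population depend on the pseudocount or test, and Col1a1 ranged from 2.33 to 6.003, Loxl1 from 2.48 to 7.65, P3h4 from 3.38 to 8.60 and Col4a6 from -6.68 to -2.84 (log2). Depth limits the 32 genes that were not tested.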
